A study of Homo sapiens with 12 samples.

Results

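The genes described here are MS4A3, PLAC8 and 7 genes whose products fill or build azurophil granules: MPO, ELANE, PRTN3, AZU1, CTSG, LYZ and SRGN. They are 9 of the 19775 genes measured. The group was put together by gene symbol with results of these arrays in view. MS4A3 and PLAC8 were chosen by their signal at 24 h of JS-K relative to vehicle, where they stand among the largest falls of the whole table, so their values are given as a description, with no p. For the 7 granule genes the p-values are their rows of a fit across all genes, and they are no independent evidence that the group as such changed. Of the probe sets listed with a gene's symbol alone, the one whose mean across the 12 arrays was highest was read. There were 14 such probe sets, 5 genes had a single one and 4 genes had more.

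The cells were U937, a human leukemia line of the monocytic lineage. They were given JS-K, a compound that releases nitric oxide inside cells, for 90 min, 4 h or 24 h, or the DMSO vehicle, with 3 arrays labelled as biological replicates in each of the 4 groups. The labels state neither the JS-K dose nor the time of vehicle exposure, and no vehicle is matched to each time, so time in culture cannot be told apart from JS-K. Nor do they say whether the replicates came from separate cultures, and the p-values reflect only the spread among these arrays, which may be technical.

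Azurophil granules are the first granules made as myeloid progenitors mature toward neutrophils and monocytes. They hold serine proteases and antimicrobial proteins that are packed around a negatively charged proteoglycan and act on ingested microbes. Many of their genes, though not all, are transcribed at the promyelocyte stage under C/EBP factors, PU.1, MYB and other factors, and are shut off as cells mature further. MS4A3 encodes a membrane protein found mainly in granulocyte and monocyte progenitors, and PLAC8 encodes a small cysteine-rich protein found in immature and some mature myeloid cells.

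Across all probe sets, which are not independent replicates, array correlations were 0.993 to 0.998 within groups. Replicate 2 of the 4 h group stood apart with an array median of 3.10 on the log2 scale, against at most 2.99 elsewhere, and values at 4 h are therefore also given without it. The poly-A spikes, bacterial transcripts meant to be added before labelling, averaged 3.04 in vehicle, 3.08 at 90 min, 7.02 at 4 h and 8.47 at 24 h. For the spikes that monitor hybridization the means were 9.96 in vehicle, 10.03 at 90 min, 10.21 at 4 h and 11.70 at 24 h, so both kinds moved with the group. The difference between 3′ and 5′ probe sets of ACTB, a measure of transcript coverage, averaged 0.80 in vehicle, 0.83 at 90 min, 0.96 at 4 h and 0.96 at 24 h, and that of GAPDH 0.00483, 0.0142, -0.0599 and 0.129. In vehicle and at 90 min the poly-A spikes thus lay under 4, and at 4 h and 24 h well above it. Sample preparation that differed with the group cannot be told apart from JS-K, also for 24 h against vehicle. The part of these controls in the differences below was not tested. All values are log2 signals, a level under 4 is called low signal, and 51.7% of the genes had a mean under it. Of the 9 measured myeloid markers, 8 had a mean of at least 4 in every group. No T cell, megakaryocyte or epithelial marker on the lists reached that level in any group. The B cell factor PAX5 (5.99 in vehicle), the erythroid factor KLF1 (4.53 in vehicle) and the mast cell tryptase TPSAB1 (11.24 in vehicle) did, each alone on its list. PAX5 and KLF1 were lower at 24 h, by -1.65 ± 0.29 and -1.28 ± 0.31 (SE, limma adjusted p = 0.000597 and 0.00536), TPSAB1 was higher by 0.50 ± 0.12 (0.00583), and the part of such markers in the results was not tested.

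The promoters are shown of those genes that were lower at 24 h and have an entry. RefSeq entries of the human assembly GRCh38.p14 were found for MS4A3, PLAC8, PRTN3, AZU1 and CTSG, while ELANE, LYZ, MPO and SRGN had none in the table used. Each line gives the 250 bases before the gene start, 5′ to 3′ on the strand of the gene. Capitals mark matches on either strand to the C/EBP motif TTGCNNAA, the PU.1 motif GAGGAA or the MYB motif CAACNG.
MS4A3, chr11:60056415-60056664, plus strand: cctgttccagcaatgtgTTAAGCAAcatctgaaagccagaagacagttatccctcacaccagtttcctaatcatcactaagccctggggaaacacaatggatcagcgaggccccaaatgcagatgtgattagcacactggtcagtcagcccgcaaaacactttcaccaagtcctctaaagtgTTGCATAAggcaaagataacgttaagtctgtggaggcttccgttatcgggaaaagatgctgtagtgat
PLAC8, chr4:83114730-83114979, minus strand: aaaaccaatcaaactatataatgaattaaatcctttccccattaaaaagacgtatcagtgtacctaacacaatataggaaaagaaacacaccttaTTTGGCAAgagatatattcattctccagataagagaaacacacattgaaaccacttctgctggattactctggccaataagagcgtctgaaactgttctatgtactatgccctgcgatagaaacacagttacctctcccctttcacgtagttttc
PRTN3, chr19:840749-840998, plus strand: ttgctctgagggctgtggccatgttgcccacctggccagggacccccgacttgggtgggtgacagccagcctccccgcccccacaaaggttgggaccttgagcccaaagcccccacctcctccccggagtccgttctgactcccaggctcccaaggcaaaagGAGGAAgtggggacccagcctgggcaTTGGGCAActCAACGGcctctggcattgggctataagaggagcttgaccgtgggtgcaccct
AZU1, chr19:827587-827836, plus strand: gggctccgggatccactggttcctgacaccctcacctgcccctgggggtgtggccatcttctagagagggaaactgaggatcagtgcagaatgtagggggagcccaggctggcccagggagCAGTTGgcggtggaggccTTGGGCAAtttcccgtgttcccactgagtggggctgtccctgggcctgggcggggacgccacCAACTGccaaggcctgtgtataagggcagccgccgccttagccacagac
CTSG, chr14:24576251-24576500, minus strand: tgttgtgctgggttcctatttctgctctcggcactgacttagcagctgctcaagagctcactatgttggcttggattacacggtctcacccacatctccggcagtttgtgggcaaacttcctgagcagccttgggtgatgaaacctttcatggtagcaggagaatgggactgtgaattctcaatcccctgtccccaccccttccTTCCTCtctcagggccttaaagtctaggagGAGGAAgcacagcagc

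The MS4A3 window held 2 C/EBP matches, which began 233 and 68 bases before the gene start. The PLAC8 window held 1 C/EBP match 155 bases before it, and a second listed start of PLAC8 had 1 PU.1 match in its own window. PRTN3 had 1 match to each motif, within 88 bases of its start. AZU1 had 1 C/EBP and 2 MYB matches, and CTSG had 2 PU.1 matches. Among 35116 windows of the same length, 9.05% held the C/EBP motif, 23.6% the PU.1 motif and 27.0% the MYB motif. No 2 matches overlapped. A match describes the letters only.

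MS4A3 lay near 10.5 in vehicle and somewhat higher at 90 min and 4 h, and at 24 h it was about 4.4 log2 units lower. Probe set 1554892_a_at read 10.45, 10.45 and 10.50 in the vehicle arrays, 10.82, 10.82 and 10.91 at 90 min, 10.89, 10.58 and 10.82 at 4 h, and 6.06, 5.89 and 6.18 at 24 h. Every 90 min and 4 h array lay above the vehicle arrays, and every 24 h array lay far below all others. In order of level, 90 min and 4 h overlapped, vehicle came next and 24 h last.

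At 24 h MS4A3 differed by -4.42 ± 0.09 from vehicle (SE), a level of 4.66% of vehicle or 21.5-fold lower. The early differences from vehicle were small, at 0.38 ± 0.09 for 90 min and 0.29 ± 0.09 for 4 h, or 1.30-fold and 1.23-fold higher. Without 4 h replicate 2, the 4 h difference was 0.38. A second probe set, 210254_at, gave 6.24, 5.87 and 5.96 at 24 h, against 10.10, 10.03 and 10.00 in vehicle. It differed by -4.02 ± 0.10, so both probe sets show the drop. Among all genes, MS4A3 had the 4th largest fall of 24 h against vehicle. In bulk RNA, fewer cells that express a gene cannot be told apart from less RNA per cell, here and below.

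PLAC8 had the largest fall of all 19775 genes at 24 h. Probe set 219014_at read 9.64, 9.49 and 9.56 in vehicle, 9.31, 9.23 and 9.31 at 90 min, 9.11, 8.50 and 8.99 at 4 h, and 5.04, 5.49 and 3.62 at 24 h. The groups did not overlap, and their order was vehicle, 90 min, 4 h and 24 h. The 24 h arrays spread widely, and replicate 3 lay under the low-signal mark.

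PLAC8 differed from vehicle by -0.28 ± 0.35 at 90 min, -0.70 ± 0.35 at 4 h and -4.85 ± 0.35 at 24 h (SE). The level at 24 h was 3.48% of vehicle, or 28.8-fold lower. Its SE is set by the 24 h arrays, whose SD was 0.98, against 0.08 in vehicle. Leaving out 24 h replicate 3 gave -4.30 ± 0.17 and leaving out 24 h replicate 2 gave -5.23 ± 0.32. At 4 h without replicate 2 the difference was -0.51.

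**Figure D1:**
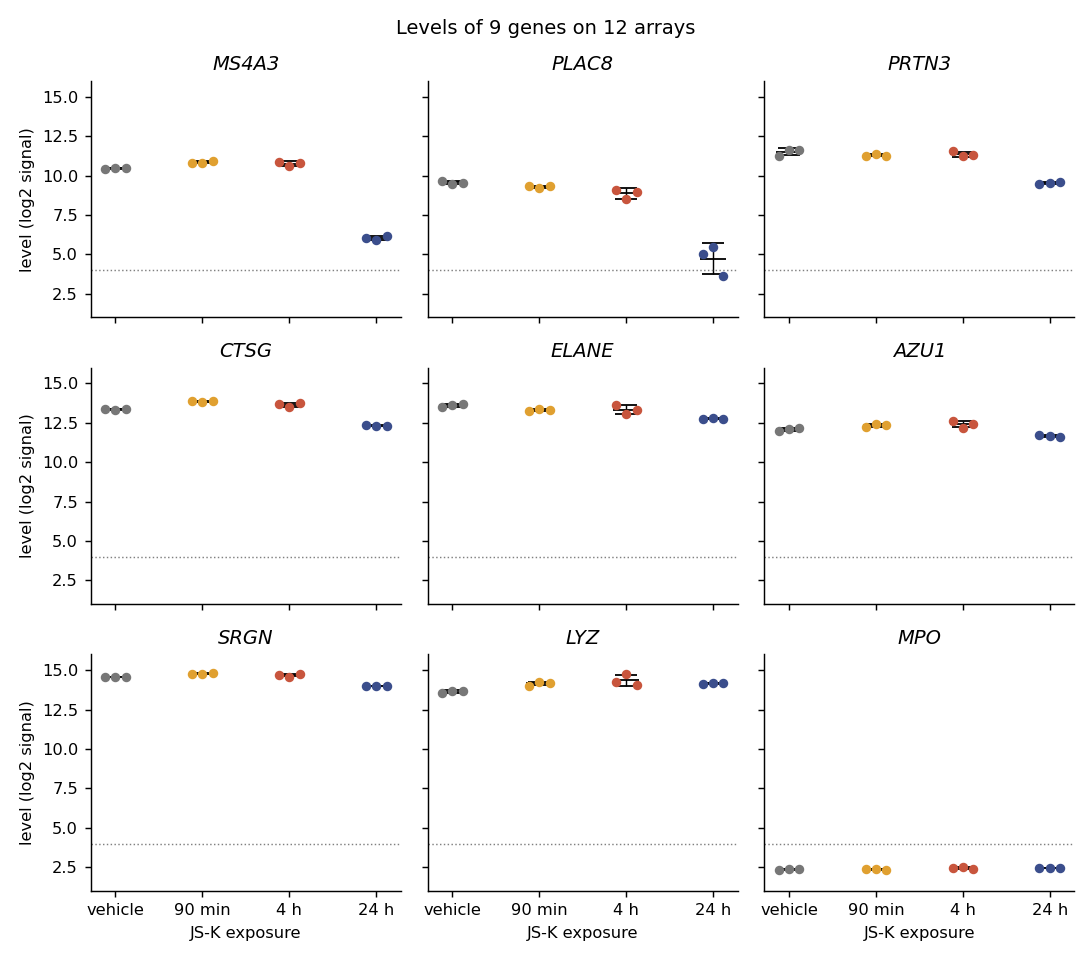
Levels on the log2 scale (y axis) of the 9 genes on each of the 12 arrays, by group on the x axis; points are arrays, the long bar is the group mean, the short bars are 1 SD either side, and the dotted line is the low-signal mark of 4. MS4A3, PLAC8 and PRTN3 drop most at 24 h, and MPO stays under the mark on every array.

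The 4 serine protease homologs of the azurophil granule came next. PRTN3, ELANE and CTSG encode proteinase 3, neutrophil elastase and cathepsin G, which cleave microbial and matrix proteins. AZU1 encodes azurocidin, which has the same fold without protease activity and binds bacteria. All 4 fell at 24 h, PRTN3 the most and AZU1 the least, while at 90 min and 4 h they did not move alike. They are related in sequence, and each was read from a single probe set.

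PRTN3 read 11.26, 11.65 and 11.63 in vehicle, 11.24, 11.36 and 11.25 at 90 min, 11.53, 11.24 and 11.28 at 4 h, and 9.45, 9.51 and 9.57 at 24 h. The first 3 groups overlapped and the 24 h arrays lay well below them. At 24 h PRTN3 was 4.00-fold lower than in vehicle, by -2.001 ± 0.104 (SE, limma adjusted p = 1.55e-08). At 90 min it differed by -0.23 ± 0.10 (limma adjusted p = 0.274) and at 4 h by -0.16 ± 0.10 (0.200), neither past the threshold of 0.05. Without vehicle replicate 1, the lowest of the vehicle arrays, these became -0.35 (adjusted p = 0.0319) and -0.29 (0.0401). Array weights also gave a call at 90 min (-0.30, adjusted p = 0.0225).

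CTSG was higher early and lower late. It read 13.40, 13.34 and 13.37 in vehicle, 13.86, 13.79 and 13.86 at 90 min, 13.73, 13.50 and 13.74 at 4 h, and 12.35, 12.30 and 12.31 at 24 h. Both early groups lay wholly above vehicle, and the 24 h arrays lay wholly below it. The level was 1.38-fold higher at 90 min (0.47 ± 0.06, limma adjusted p = 0.000313) and 1.22-fold higher at 4 h (0.29 ± 0.06, adjusted p = 0.00345), and 2.07-fold lower at 24 h (-1.05 ± 0.06, adjusted p = 2.95e-08). The 4 h arrays lay below the 90 min arrays by -0.18 ± 0.06, which did not pass (adjusted p = 0.0782). That comparison passed without 4 h replicate 1 (-0.22, adjusted p = 0.0470) or without 4 h replicate 3 (-0.22, 0.0488).

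AZU1 had the same signs as CTSG at each time. It read 11.98, 12.12 and 12.16 in vehicle, 12.23, 12.45 and 12.34 at 90 min, 12.61, 12.20 and 12.45 at 4 h, and 11.73, 11.64 and 11.59 at 24 h. The 90 min and 4 h arrays overlapped each other and lay above vehicle, and the 24 h arrays lay below it. The difference at 90 min did not pass (0.25 ± 0.10, limma adjusted p = 0.150), and that at 4 h did (0.33 ± 0.10, adjusted p = 0.0248, 1.26-fold higher). Without 4 h replicate 2 the 90 min difference passed (adjusted p = 0.0435), and the 4 h difference was 0.44 (0.00270). Without vehicle replicate 1 the 4 h difference was 0.28 and did not pass (0.0983). At 24 h AZU1 was 1.35-fold lower than in vehicle (-0.43 ± 0.10, adjusted p = 0.00303).

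ELANE was lower than vehicle on average at every time, and the difference passed the test at 24 h. It read 13.49, 13.65 and 13.69 in vehicle, 13.26, 13.38 and 13.32 at 90 min, 13.62, 13.09 and 13.30 at 4 h, and 12.74, 12.81 and 12.75 at 24 h. The 90 min arrays lay below vehicle, the 4 h arrays overlapped both of these groups, and the 24 h arrays were lowest. At 24 h the level was 1.79-fold lower than in vehicle (-0.84 ± 0.10, limma adjusted p = 2.86e-05). The earlier differences of -0.29 ± 0.10 at 90 min (adjusted p = 0.118) and -0.27 ± 0.10 at 4 h (0.0521) did not pass. At 90 min the call was made without 4 h replicate 2 (adjusted p = 0.0327), and at 4 h without 4 h replicate 1 (-0.41, 0.00186), while without 4 h replicate 2 the 4 h difference was -0.15 (0.188).

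LYZ encodes lysozyme, which cuts bacterial cell walls and is also made by mature monocytes and macrophages. On its brighter probe set, 213975_s_at, it read 13.56, 13.71 and 13.65 in vehicle, 14.02, 14.26 and 14.18 at 90 min, 14.23, 14.75 and 14.07 at 4 h, and 14.14, 14.21 and 14.17 at 24 h. Every JS-K array lay above the vehicle arrays, the 3 JS-K groups overlapped, and 4 h replicate 2 was the highest. The differences from vehicle were 0.52 ± 0.13 at 90 min (limma adjusted p = 0.0284), 0.71 ± 0.13 at 4 h (0.00190) and 0.53 ± 0.13 at 24 h (0.00682), or 1.43-fold to 1.64-fold higher. Without 4 h replicate 2 the 4 h difference was 0.51 (adjusted p = 0.000625).

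The 90 min call of LYZ was lost when any vehicle array, 90 min replicate 2 or 90 min replicate 3 was left out, with differences of 0.46 to 0.55 and adjusted p of 0.0567 to 0.118. The second probe set of LYZ, 1555745_a_at, read 13.78, 13.91 and 13.83 at 24 h, against 13.88, 13.92 and 13.85 in vehicle. It was higher at 90 min by 0.29 ± 0.07 (limma adjusted p = 0.0221 over all probe sets) and at 4 h by 0.28 ± 0.07 (0.0104), but differed by -0.04 ± 0.07 at 24 h (0.573). The probe sets of LYZ thus disagree at 24 h, where 1 is higher and the other shows no call.

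SRGN encodes serglycin, the proteoglycan whose chondroitin sulfate chains hold proteases in the granule. Its brightest probe set, 201858_s_at, read 14.57, 14.58 and 14.57 in vehicle, 14.78, 14.75 and 14.81 at 90 min, 14.68, 14.59 and 14.73 at 4 h, and 13.98, 13.98 and 14.01 at 24 h. These values stand near the top of the scale, since the highest of any probe set was 15.5. The early arrays lay above vehicle and the 24 h arrays below it. The differences were 0.21 ± 0.04 at 90 min (limma adjusted p = 0.00543), 0.10 ± 0.04 at 4 h (0.0634) and -0.59 ± 0.04 at 24 h (1.52e-07), the last 1.501-fold lower. The 90 min call ended with array medians subtracted (0.23, adjusted p = 0.0688) and with the mean of probe sets (0.11, 0.186). Without 4 h replicate 2 the 4 h difference was 0.13 and passed (0.00923).

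The 3 probe sets of SRGN differed in size and direction. Probe set 201859_at read 14.12, 14.19 and 14.10 at 24 h, against 14.10, 14.23 and 14.11 in vehicle, a difference of -0.01 ± 0.06 (limma adjusted p = 0.892 over all probe sets). It was higher at 90 min by 0.26 ± 0.06 and at 4 h by 0.33 ± 0.06. Probe set 1554676_at, far dimmer, read 8.07, 8.0 and 7.94 in vehicle, 7.83, 7.88 and 7.93 at 90 min, 6.51, 6.19 and 6.52 at 4 h, and 5.46, 5.24 and 5.26 at 24 h. It fell by 1.60 on the log2 scale at 4 h and by 2.68 at 24 h, with adjusted p of 3.01e-06 and 9.24e-09. The fall of SRGN at 24 h was therefore seen on 2 of its 3 probe sets. Which transcripts each probe set reads was not analysed here.

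MPO encodes myeloperoxidase, the heme enzyme that makes hypochlorous acid and serves as a marker of azurophil granules. It was not read above the low-signal mark in any sample. Probe set 203949_at read 2.35 to 2.38 in vehicle, 2.34 to 2.40 at 90 min, 2.40 to 2.51 at 4 h and 2.42 at 24 h. Probe set 203948_s_at lay between 2.07 and 2.19. The control probe sets for trp, a bacterial transcript not added here, averaged 2.53 in vehicle and 2.66 at 4 h, so MPO lay no higher than probe sets without a target. No change of MPO can be read from these values.

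**Figure D2:**
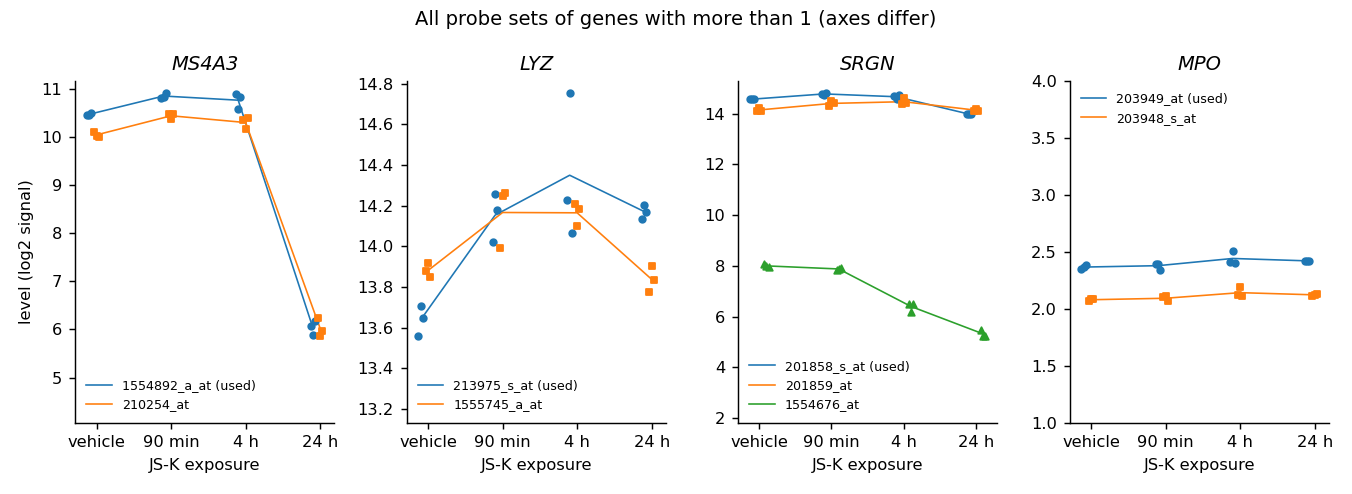
Levels on the log2 scale (y axis, a different range in each panel) of all probe sets of the 4 genes that have more than 1, by group on the x axis; points are arrays and lines join group means. Both MS4A3 probe sets drop at 24 h, while at 24 h LYZ 1555745_a_at and SRGN 201859_at overlap their vehicle arrays.

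Counted together, 3 of the 7 granule genes were higher at 90 min (CTSG, LYZ and SRGN) and none was lower, by limma with an adjusted p under 0.05. Of all genes, 4.03% were called higher and 5.62% lower in that comparison, and of the 9869 genes with a group mean of at least 4, 7.89% and 10.6%. Of the granule genes, 5 of the 7 had an unadjusted p under 0.05, as did 18.6% of all genes. At 4 h, AZU1, CTSG and LYZ were higher and none was lower, against 23.9% higher and 16.6% lower among all genes and 14.5% and 32.1% among those with a level. The number of all genes called higher moved with single arrays: 4735 genes became 2477 without 4 h replicate 2, 1121 without vehicle replicate 3 and 8147 without 4 h replicate 3, and quantile normalization gave 2289 higher and 2583 lower. Of the granule genes, 6 of the 7 had an unadjusted p under 0.05, as did 60.0% of all genes. At 24 h, PRTN3, CTSG, ELANE, SRGN and AZU1 fell and LYZ was higher, against 18.9% lower and 17.8% higher among all genes and 36.7% and 26.1% among those with a level. The median difference of the 7 genes from vehicle was 0.21 at 90 min, 0.10 at 4 h and -0.59 at 24 h, beside 0.01, 0.06 and 0.06 for all genes and -0.03, -0.14 and -0.09 for genes with a mean of at least 4 over the 12 arrays. These 3 comparisons share the vehicle arrays.

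At 24 h compared with 4 h, PRTN3, CTSG, AZU1, SRGN and ELANE were lower and none was higher. Of all genes, 10.7% were lower and 12.8% higher, and of those with a level 21.3% and 24.8%. With array medians subtracted, 4438 of all genes were lower and 2160 higher, against 2114 and 2535. The differences were -1.84 ± 0.10 for PRTN3 (limma adjusted p = 1.10e-07), -1.34 ± 0.06 for CTSG (1.58e-08), -0.77 ± 0.10 for AZU1 (6.35e-05), -0.68 ± 0.04 for SRGN (1.32e-07) and -0.57 ± 0.10 for ELANE (0.00119). MS4A3 differed by -4.72 ± 0.09 and PLAC8 by -4.15 ± 0.35 in the same comparison. LYZ did not pass on probe set 213975_s_at (-0.18 ± 0.13, adjusted p = 0.516). On its other probe set, 1555745_a_at, it was lower by -0.33 ± 0.07 (limma adjusted p = 0.00348 over all probe sets), so the probe sets of LYZ disagree here too. On probe set 1554676_at, SRGN differed from vehicle by -1.60 at 4 h and by -2.68 at 24 h. Poly-A spikes were present in both groups, at 8.47 in the 24 h arrays and 7.02 in the 4 h arrays, and hybridization spikes stood at 11.70 and 10.21.

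Between 90 min and 4 h no granule gene passed the test. By limma, 0 of 7 had an adjusted p under 0.05 and 2 had an unadjusted p under 0.05, as did 35.8% of all genes. Of all genes, 7.25% were called lower and 3.33% higher at 4 h, and of those with a level 14.4% and 6.30%. Quantile normalization gave 1250 lower and 1083 higher, against 1434 and 658. The arrays of PLAC8, CTSG and SRGN at 4 h lay wholly below those at 90 min, and this form of non-overlap downward was found in 13.6% of all genes. At 24 h, the arrays of 5 of the 7 granule genes lay wholly below vehicle, compared with 21.7% of all genes. Those of LYZ and MPO lay wholly above, compared with 60.6%. MS4A3 and PLAC8 also lay wholly below, but they were chosen by this fall and are not counted. These shares are over all genes, including those at low signal.

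**Figure D3:**
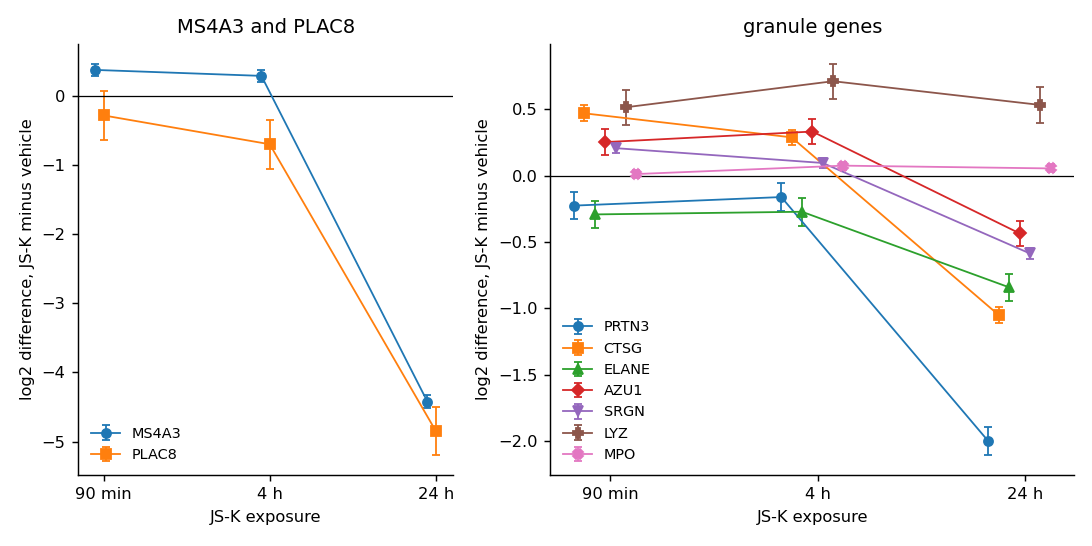
Log2 difference from vehicle (y axis, a different range in each panel) of MS4A3 and PLAC8 on the left and of the 7 granule genes on the right, at 90 min, 4 h and 24 h of JS-K; bars are the SE of the fit and points are shifted sideways within a time. The 2 genes on the left reach -4.42 and -4.85 at 24 h, PRTN3 reaches -2.001, and LYZ stays above 0.

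AZU1, PRTN3 and ELANE lie side by side on chromosome 19 in that order, with PLPPR3 before them and CFD and MED16 after them. The size of the fall at 24 h differed among the 3 granule genes on these arrays. Within each array, PRTN3 minus ELANE was -3.29, -3.31 and -3.19 at 24 h, against -2.23, -2.01 and -2.06 in vehicle. Only the shift of such a difference between groups can be read, since probe sets differ in brightness. The groups do not overlap, and the shift of -1.16 has an exact two-sided permutation p of 0.1, the smallest that 3 against 3 arrays can give. PRTN3 minus AZU1 shifted by -1.57 and ELANE minus AZU1 by -0.41, each also with p = 0.1 by the exact permutation test, and the 3 tests stay at 0.1 after adjustment.

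CFD, which encodes the complement protease factor D, was higher at 24 h, at 11.06 ± 0.07 compared with 10.35 ± 0.17 in vehicle (SD, n = 3). The difference was 0.71 ± 0.08 (SE, limma adjusted p = 1.88e-05). MED16, a subunit of the Mediator complex, differed by -0.22 ± 0.18 and did not pass (adjusted p = 0.299). PLPPR3 was low signal at 3.03 in the 24 h arrays and 2.94 in vehicle. The lower levels at 24 h in this stretch were therefore those of AZU1, PRTN3 and ELANE among these 6 genes.

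**Figure D4:**
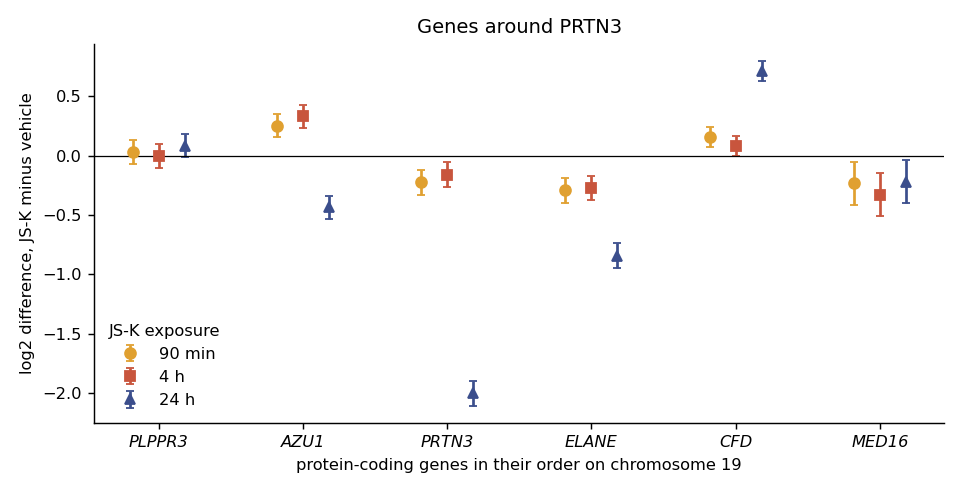
Log2 difference from vehicle (y axis) of 6 neighbouring protein-coding genes in their order on chromosome 19 (x axis, not to scale), with 1 marker for each JS-K time and bars for the SE of the fit. At 24 h PRTN3 lies at -2.001 between AZU1 at -0.43 and ELANE at -0.84, while CFD lies at 0.71.

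Further genes of granule biology were read from lists, with counts over genes whose mean was at least 4 in some group. Of all 9869 such genes, 36.7% were called lower and 26.1% higher at 24 h, and each list is to be read against these shares. A gene could enter only through the group where it was high. VAMP2, called higher, reached 4 at 24 h alone (4.02, against 3.59 in vehicle). SYTL1, called lower, reached it in vehicle alone (5.07, against 2.87 at 24 h). HP, called higher, was under it in vehicle (3.45). Such entries are no support for a change of a list. Of other azurophil granule proteins, 4 of 11 listed were measured and 2 had such a level. Both were higher at 24 h: CD63, a membrane protein of azurophil granules and lysosomes, by 0.61 ± 0.06 (limma adjusted p = 1.91e-06), and RNASE2, a ribonuclease better known from eosinophils, by 0.26 ± 0.07 (0.00790). BPI, DEFA1, DEFA3 and PRSS57 were not analysed here. Neither of the 2 genes fell at any time.

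Genes that process or inhibit the proteases numbered 3 of 9 lower, 2 higher and 4 not called at 24 h, near the shares among all such genes. CTSC encodes the dipeptidyl peptidase that activates the granule proteases, and it fell to 10.90 ± 0.01 at 24 h, against 11.99 ± 0.06 in vehicle (SD, n = 3), by -1.09 ± 0.08 (limma adjusted p = 2.90e-07). SERPINB1, an inhibitor of elastase, cathepsin G and proteinase 3, was lower by -0.67 ± 0.10 at 90 min (adjusted p = 0.000972), -0.63 ± 0.10 at 4 h (0.000584) and -1.17 ± 0.10 at 24 h (9.98e-07). SERPINA1, the secreted antitrypsin, was higher at 24 h by 0.59 ± 0.12 (0.00196).

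Of the specific and gelatinase granule list, 4 of 5 genes were higher at 24 h and none was lower, where 26.1% and 36.7% of all such genes were. The 4 include HP, which was at 3.45 in vehicle and entered only through the JS-K groups. The count is therefore no support for a change of the list. CHI3L1, a chitinase-like protein, was higher by 1.25 ± 0.06 at 90 min and 1.58 ± 0.06 at 24 h (limma adjusted p = 5.19e-08 and 7.43e-10). FCN1, a ficolin of monocytes, was higher by 1.54 ± 0.15 at 24 h (4.68e-06), and haptoglobin, HP, by 2.70 ± 0.22 at 90 min (1.00e-05) and 0.94 ± 0.22 at 24 h (0.00426). The remaining genes with a level were CAMP, which encodes cathelicidin and was called higher, and MMP9, gelatinase B, which was not called. LTF, LCN2, MMP8, CEACAM8 and other neutrophil genes of the list were low signal in every group.

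Of the eosinophil and basophil list, TPSAB1 and TPSB2 had a level and were higher at 24 h by 0.50 ± 0.12 (limma adjusted p = 0.00583) and 0.48 ± 0.13 (0.00984). These tryptase genes are nearly identical, and their probe sets may share signal. PRG3 was also called higher, by 0.05 ± 0.02 (0.0475), at low signal. Of the cytotoxic granule list, NKG7 alone had a level. It was higher at 90 min by 0.41 ± 0.08 (0.00486) and did not pass at 24 h (0.16 ± 0.08, 0.106).

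Of the enzymes that build chondroitin sulfate chains on serglycin, 5 of 14 were lower at 24 h, 2 were higher and 7 were not called, close to the 36.7% lower among all such genes. B3GALT6, which adds a galactose of the chain's linker, was lower by -1.48 ± 0.15 (limma adjusted p = 3.91e-06), and CHST13, a chondroitin sulfotransferase, by -1.24 ± 0.19 (0.000202). UST, which sulfates uronic acid, was higher by 1.25 ± 0.29 (0.00445). Of the genes of granule transport and exocytosis, 5 of 18 were lower and 7 higher, beside 36.7% and 26.1%. SYTL1, a RAB27 effector, was lower by -2.20 ± 0.15 (1.51e-07) and had entered low signal by 90 min, while STXBP2, which acts in granule fusion, was higher by 1.18 ± 0.14 (2.71e-05) and STXBP3 by 0.83 ± 0.17 (0.00197).

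Heme is the cofactor of myeloperoxidase. At 24 h, 4 of 9 genes of heme synthesis were lower, 1 was higher and 4 were not called, beside 36.7% lower among all such genes. UROS was lower by -1.80 ± 0.22 (limma adjusted p = 2.54e-05) and FECH, which inserts the iron, by -1.61 ± 0.13 (6.24e-07). CPOX was higher by 1.44 ± 0.11 (4.53e-07).

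**Figure D5:**
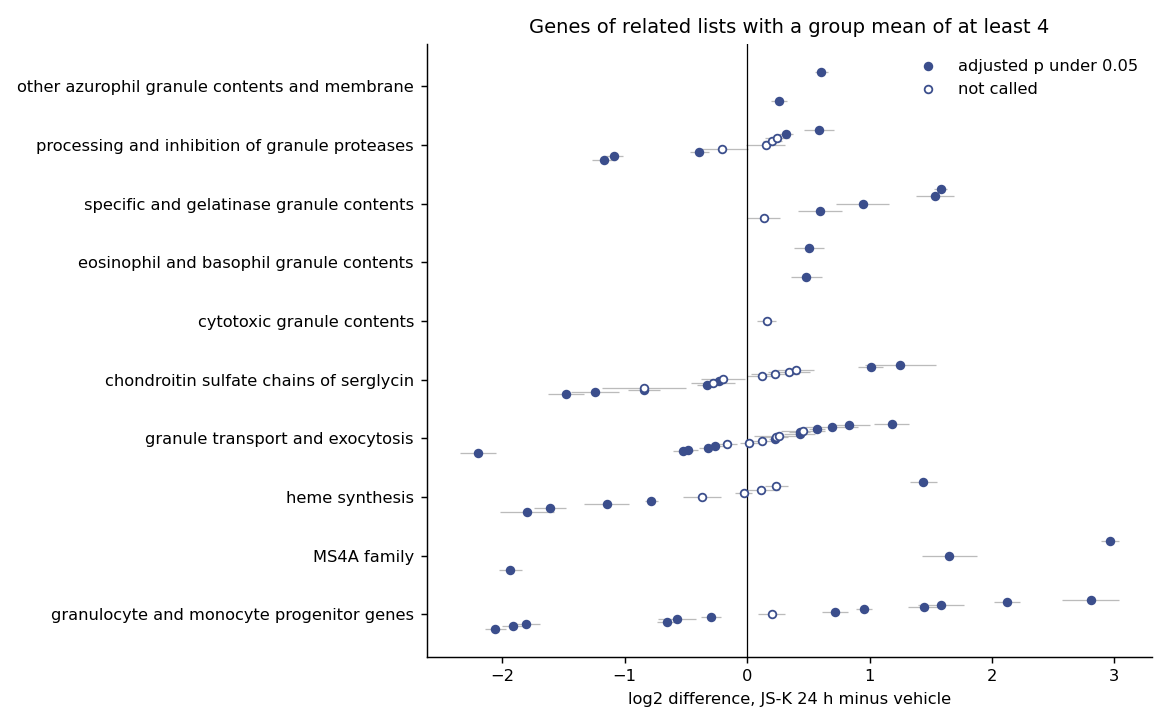
Log2 difference of JS-K 24 h minus vehicle (x axis) for single genes of 10 lists (y axis) whose mean was at least 4 in some group; filled points had a limma adjusted p under 0.05, open points did not, and bars are the SE of the fit. The MS4A family holds genes on both sides, and the genes of the specific and gelatinase granule list lie to the right of 0.

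Other members of the MS4A family, which share the four-pass membrane fold of MS4A3, were measured for 12 of 17 listed, and 3 had a level. MS4A7 fell to 7.42 ± 0.08 at 24 h, against 9.36 ± 0.11 in vehicle (SD, n = 3), by -1.93 ± 0.09 (limma adjusted p = 9.42e-09). MS4A4A was higher at 24 h, at 11.39 ± 0.11 compared with 8.43 ± 0.03 in vehicle, by 2.96 ± 0.08 (5.27e-11). MS4A6A was higher by 1.65 ± 0.22 (5.96e-05). Of the 3 genes with a level, 1 was thus lower and 2 were higher at 24 h, beside 36.7% and 26.1% of all such genes. MS4A3 was chosen by its fall and is not counted here.

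Among genes of granulocyte and monocyte progenitors, 6 of 13 were lower at 24 h, 6 were higher and 1 was not called, beside 36.7% lower and 26.1% higher among all such genes. CSF1R, the receptor of macrophage colony-stimulating factor, was higher by 2.80 ± 0.23 (limma adjusted p = 9.31e-07), and CSF2RB, the shared beta chain of other cytokine receptors, by 2.12 ± 0.11 (1.07e-08). MYB, a transcription factor of progenitors, was lower by -0.40 ± 0.09 at 90 min (0.00991), -1.32 ± 0.09 at 4 h (5.47e-07) and -2.06 ± 0.09 at 24 h (2.53e-09). The part of MYB in the levels of the granule genes was not tested.

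Of the other factors named with the promoter motifs, CEBPA was lower by -0.62 ± 0.08 at 4 h (limma adjusted p = 0.000132) and by -0.30 ± 0.08 at 24 h (0.0104). CEBPE, a C/EBP factor of granulocytes, was higher by 0.64 ± 0.13 at 90 min (0.00690), 0.48 ± 0.13 at 4 h (0.0165) and 1.44 ± 0.13 at 24 h (1.62e-06). SPI1, which encodes PU.1, was not called at 90 min (0.33 ± 0.19, 0.435). It was higher by 0.91 ± 0.19 at 4 h (0.00358) and by 1.58 ± 0.19 at 24 h (2.11e-05). Of the myeloid markers, 7 of the 8 with a level were higher at 24 h and none was lower, beside 26.1% and 36.7% of all such genes. SPI1 and CSF1R are on this list and also on that of progenitor genes, so the 2 counts are not separate. Over all 9 measured markers, the mean level per array was 8.90 to 8.95 at 24 h and 7.46 to 7.56 in vehicle.

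Genes with the pattern most like MS4A3 and PLAC8 were taken by Pearson correlation over the 12 arrays, among 2719 genes with a mean of at least 4 and group means at least 1 apart on the log2 scale. For MS4A3 these were PCOLCE2, IPO4, LZTFL1 and CMSS1, with r of 0.995 to 0.997. Their differences at 24 h were -2.83 ± 0.11, -3.48 ± 0.13, -1.37 ± 0.07 and -2.09 ± 0.09, all smaller than that of MS4A3. For PLAC8 they were ADGRA3, KIAA1958, HSPA4L and CCNE1, with r of 0.992 to 0.996. ADGRA3 differed by -3.07 ± 0.28 at 24 h and CCNE1 by -3.19 ± 0.35. The 24 h arrays lie apart from the rest in all of these genes, so each r mainly describes that gap.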

How the data were processed

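U937 RNA was measured on 12 expression arrays in 4 groups of 3. The authors deposited log2 values, 1 for each probe set of each array, from GCRMA in Affymetrix Expression Console, per the submitters' processing notes; GCRMA corrects background from probe sequence, quantile normalizes and summarises probes. Per the labels, RNA was labelled with a whole-transcript kit, whereas the probe set names belong to a 3' expression design. The genome build and array scans were not used here.

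No further normalization was applied and no filter on level was set. The table held 54675 probe sets, of which 41097 had 1 gene symbol, 1801 several and 11777 none; 41043 of the first matched a RefSeq gene by identifier. For 10523 genes with more than 1 probe set, the one with the highest mean stood for the gene. The 14 probe sets of the 9 genes were shared with no other symbol.

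The tool for differences was limma 3.58.1 (lmFit, contrasts and eBayes with trend; R 4.3.3) with all 12 arrays in 1 fit, 8 residual and 3.97 prior degrees of freedom. P-values were adjusted by Benjamini-Hochberg over the 19775 genes of each comparison, or over 41097 probe sets where stated, and a call needs an adjusted p under 0.05. Errors are SE of the fit for differences and SD of 3 arrays for levels, and folds are powers of 2. Within-array differences were tested by exact two-sided permutation. The number of arrays limits the precision. The procedure was tested on simulated data. Figures were drawn with matplotlib 3.10.9.

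The genes and lists were chosen with earlier results of these data known. All 9 genes are named. Of each list, up to 3 called genes with the largest difference at 24 h are named, or all where under 4 were measured. PLPPR3, CFD and MED16 were named by position, and CEBPA, CEBPE, SPI1, NKG7, CAMP, MMP9 and VAMP2 after their values were seen. Alternatives were a constant spread, the dimmest genes left out, a mean of at least 4, the mean of probe sets, each probe set alone, quantile normalization, array medians subtracted, array weights, a block for the replicate number, each comparison fitted on its own 6 arrays, and each array left out. The fit without 4 h replicate 2 for 90 min and 24 h against vehicle was added after seeing the data.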

Additional observations from a re-analysis of the deposited data

Results flagged for a closer look

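MS4A3, CTSG, SRGN and AZU1 lay on opposite sides of vehicle at different times, since every 90 min array read above all 3 vehicle arrays and every 24 h array below them. As 24 h minus 90 min on the log2 scale, MS4A3 differed by -4.80, with no test given. CTSG differed by -1.52 (limma adjusted p = 2.44e-09), SRGN by -0.79 (1.64e-08) and AZU1 by -0.69 (9.65e-05). Both times were set against the same vehicle arrays. The share of all genes with such a pattern was not counted, so how common it is cannot be said. MS4A3 was chosen by its signal at 24 h relative to vehicle, which is a part of the pattern. Arrays that did not overlap vehicle were common at 24 h, with 21.7% of all genes wholly lower and 60.6% wholly higher. For AZU1 the 90 min difference from vehicle did not pass (0.25, limma adjusted p = 0.150). For SRGN the pattern holds for probe set 201858_s_at, while on 201859_at the 24 h arrays overlapped vehicle.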

How the results depend on the processing

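Granule genes called lower at 24 h against vehicle numbered 5 under each alternative run for all genes, and against 4 h they numbered 5, or 6 with the mean of probe sets (LYZ added) or array medians subtracted (MPO added). With single probe sets, the call of SRGN against vehicle was lost on 201859_at (-0.01, adjusted p = 0.892). Counts near the threshold moved. For 90 min against vehicle, genes called lower went to 1 with a mean of at least 4, with the 6 arrays alone and without 4 h replicate 2 (ELANE each time), and to 2 with array weights, against 0; leaving out 1 array gave 0 to 1. For 4 h against vehicle, genes called lower numbered 1 with a mean of at least 4 (ELANE) and with the mean of probe sets (SRGN), against 0, and 0 to 1 with 1 array left out; those called higher were 5 with array weights, against 3. Genes called higher at 24 h were 2, against 1, with array weights, the 6 arrays alone or without 4 h replicate 2, where the added gene was MPO at low signal. For 4 h against 90 min, lower calls were 1, against 0, with a mean of at least 4, array weights (CTSG each) and the mean of probe sets (SRGN), and 0 to 1 with 1 array left out; array weights gave 1 higher call (AZU1).

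With the replicate number as a block, CTSG was lower at 4 h than at 90 min (-0.18, adjusted p = 0.0418), giving 1 lower call against 0, and MPO passed at 4 h at low signal (0.08, 0.0482); the block changed no other call of these genes. Whether the numbers pair the samples cannot be told from these values. Same-numbered arrays deviated together with r of -0.13 to 0.37, over 0.1 in 7 of 18 pairs, and 8 arrays correlated best with their own number.

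These differences changed sign, and the cause was not tested. MPO, at low signal, gave -0.00358 at 90 min, -0.000469 at 4 h and -0.00745 at 24 h with quantile normalization, -0.0130 at 24 h with array medians subtracted, 0.00866 for 24 h minus 4 h with array weights, and -0.0411 to 0.0131 for the same with 1 array left out (the highest without 4 h replicate 2). SRGN gave -0.39 at 4 h with the mean of probe sets (adjusted p = 8.64e-05), -0.12 at 90 min and -1.60 at 4 h on 1554676_at, and 0.0680 for 4 h minus 90 min on 201859_at. LYZ gave -0.0437 at 24 h and -0.00164 for 4 h minus 90 min on 1555745_a_at. With 1 array left out it ranged from -0.00551 (without 4 h replicate 2) to 0.34 for 4 h minus 90 min, and from -0.32 to 0.0229 (without 4 h replicate 2) for 24 h minus 4 h. For 4 h minus 90 min, MS4A3 gave 0.00195 with quantile normalization and 0.0387 with array weights, and ELANE -0.0386 with array medians subtracted. With 1 array left out, that difference ranged from -0.15 to 0.00493 (without 4 h replicate 2) for MS4A3 and from -0.12 (without 4 h replicate 1) to 0.14 for ELANE, where 90 min replicate 1 left out gave -0.00960. It ranged from -0.0266 to 0.12 for PRTN3 and from -0.0177 to 0.19 for AZU1, both lowest without 4 h replicate 1.

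The number of genes called higher at 24 h moved to 11039 with array weights, 10514 with the 6 arrays alone and 10291 without 4 h replicate 2, against 3518. At 4 h those called higher ranged from 1018 (6 arrays alone) to 8612 (array weights), against 4735, and those called lower were 2167 with the 6 arrays alone, against 3286. At 90 min, lower calls were 622 with array medians subtracted, 2390 with array weights, 715 without vehicle replicate 3 and 631 without 90 min replicate 2, against 1111, and higher calls 2160 with array weights, against 796. For 4 h minus 90 min, lower calls were 842 with the 6 arrays alone, 921 without 90 min replicate 1 and 915 without 90 min replicate 3, against 1434, and higher calls 374 to 1401, against 658. Single calls also ended for LYZ at 90 min with a constant spread (adjusted p = 0.0572) and for AZU1 at 4 h with array medians subtracted (0.0723) or the 6 arrays alone (0.0770). With 3 arrays a group, low-signal genes such as MPO could not be read.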
